A study of Rattus norvegicus with 39 samples.

Results

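Iron handling and heme synthesis were followed here through 9 genes: Hamp, Tfrc, Slc40a1, Tf, Fth1, Ftl1, Alas1, Alas2 and Blvrb. They were read among 14544 genes and shared probe sets tested on every array. A total of 13 probe sets measured the 9 genes, and all 9 were tested, since no filter on dim signal was used. Of the 9, 6 had a probe set of their own. The other 3 were measured only by probe sets that match several genes: one shared by Fth1 and its pseudogene Fth1-ps5, one shared by Ftl1 and 4 Ftl1-like loci, and one shared by Tf and Srprb. Values of these are given for the shared probe set and cannot be assigned to one gene of it.

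The samples were the left lateral liver lobes of 39 rats, 5 to 6 weeks old, frozen 48 h after treatment, with total RNA of each animal on 1 array. Rats were given ANIT (alpha-naphthylisothiocyanate, a bile duct toxicant, 125 mg/kg in corn oil by mouth), DMN (dimethylnitrosamine, an alkylating liver toxicant, also by mouth, 15 mg/kg in water), NMF (N-methylformamide, a solvent toxic to liver, 1000 mg/kg in saline by intraperitoneal injection), Caerulein (a cholecystokinin analogue that acts on the pancreas, 50 µg/kg in saline by intraperitoneal injection), DNP (dinitrophenol, an uncoupler of mitochondrial respiration, 15 mg/kg in water by mouth) or Roziglitazone, as the labels spell rosiglitazone (a PPAR gamma agonist, 1000 mg/kg in methylcellulose by mouth). Each compound group held 5 rats and the untreated control group 9. The labels give the controls no vehicle, so compound, vehicle and route are compared together against them, while DMN with DNP, and NMF with Caerulein, share vehicle and route. The long chemical names are background, and strain and sex are not given in the sources used here.

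The liver is the organ that both stores iron and sets its level in blood. Hepatocytes secrete hepcidin, encoded by Hamp, which binds the iron exporter ferroportin (Slc40a1) on macrophages, hepatocytes and gut cells and causes it to be degraded. BMP and SMAD signalling raises Hamp transcription when iron is plentiful, and interleukin 6 raises it through STAT3 in inflammation. Iron arrives on transferrin (Tf) through the transferrin receptor (Tfrc) and is stored in ferritin, a shell of heavy (Fth1) and light (Ftl1) chains, and iron regulatory proteins set the stability or translation of several of these messenger RNAs. Heme synthesis begins with ALA synthase, which is Alas1 in liver and other tissues and Alas2 in red cell precursors. Blvrb is a reductase of biliverdin and flavins.

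Promoter sequences of RefSeq (GRCr8, 250 bases before to 50 bases after the annotated start) were found for 7 of the 9 genes. Those of Hamp and Alas2 are shown because these were the iron gene and the heme gene with the largest differences between groups. Capitals mark matches to motifs searched on both strands: GGCGCC, the core of the BMP-responsive element, TTCNNNGAA, the site of STAT factors, and AGATAA, the site of GATA factors. The windows lie at chr1:95300222-95300521 (minus strand) for Hamp and at chrX:22895200-22895499 (plus strand) for Alas2.
Hamp: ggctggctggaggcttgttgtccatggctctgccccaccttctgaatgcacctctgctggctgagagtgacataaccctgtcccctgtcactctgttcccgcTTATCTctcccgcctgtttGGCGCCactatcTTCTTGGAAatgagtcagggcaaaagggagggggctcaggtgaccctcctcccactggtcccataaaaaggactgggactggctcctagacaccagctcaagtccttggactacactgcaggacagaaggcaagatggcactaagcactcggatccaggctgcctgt
Alas2: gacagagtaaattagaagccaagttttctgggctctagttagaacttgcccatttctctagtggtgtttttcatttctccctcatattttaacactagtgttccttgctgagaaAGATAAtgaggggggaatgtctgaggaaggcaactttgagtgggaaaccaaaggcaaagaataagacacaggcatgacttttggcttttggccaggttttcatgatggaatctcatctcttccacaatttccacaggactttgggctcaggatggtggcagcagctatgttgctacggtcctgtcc
In the Hamp promoter the capitals run from the GATA motif on the minus strand at −148 to −143, through GGCGCC at −129 to −124, to the STAT motif at −117 to −109, counted from the start site. The Alas2 window held AGATAA at −136 to −131. Of 33469 rat promoters of the same length, 11.02% held GGCGCC, 8.87% the STAT motif and 11.6% AGATAA. Tfrc also held GGCGCC, at −118 to −113, and Alas1 a STAT motif at −196 to −188. The antioxidant response element core TGACNNNGC, present in 12.1% of promoters, was not in the windows of the 7 genes. A match describes the letters only and shows no binding.

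Array quality and labels bear on several of the values. Albumin and transthyretin, which define hepatocytes, were bright in every group. Array means of intensity lay between 348 and 363, while array medians ran more widely, from 77.8 to 108.7. On 3 of 39 arrays, called the arrays in doubt, the profile went against the label or stood apart. The deviation of the array labelled ANIT 3 from the mean of the other arrays correlated at 0.71 with DMN and at 0.30 with ANIT. That of the array labelled Roziglitazone 2 correlated at 0.80 with ANIT and at −0.31 with its own group. That of the array labelled DMN 2 correlated with no group above 0.115. These 3 were picked by how they departed from their groups in the same values, so results without them are no separate support. Other arrays came near these and were not set apart as in doubt. Roziglitazone 1, control 5 and DNP 1 correlated at −0.22, −0.08 and −0.06 with their own groups. The best matches of DMN 5 and NMF 3 were 0.17 and 0.18. The best match of an array was its own group for only 15 of 39, and most of the rest matched the Caerulein, DNP, Roziglitazone or control group best. A further 6 of the 39 arrays had GAPDH 5′ control signal of 6.34 to 7.42, against 10.49 to 12.93 on the other 33. These 6 were DMN 3, NMF 3, DNP 1, Roziglitazone 1, control 4 and control 5. Results that rest on either set are given with and without it.

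Across the 7 groups the moderated F test of limma called 6 of the 9 genes, where 19.8% of all those tested were called. The 6 were Alas2 (adjusted p = 0.0000153), Blvrb (adjusted p = 0.0000495), Hamp (adjusted p = 0.0069), Alas1 (adjusted p = 0.0139), Tfrc (adjusted p = 0.0259) and the Fth1 shared probe set (adjusted p = 0.0303). Slc40a1 and the Tf and Ftl1 shared probe sets were not called. Against control, ANIT called 3 of the 9 where 16.6% of all those tested were called, NMF called 3 where 7.71% were called, and DMN called 1 where 10.5% were called. In the Caerulein, DNP and Roziglitazone comparisons none of the 9 and none of all those tested were called (0.0% each), and limma's unadjusted p was under 0.05 for 1, 2 and 1 of the 9, and for 3.8%, 1.42% and 7.37% of all those tested. The median log2 fold change of the 9 was 0.40 for ANIT, 0.13 for DMN and 0.29 for NMF, against medians of −0.08, −0.05 and −0.05 over all those tested.

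**Figure D1:**
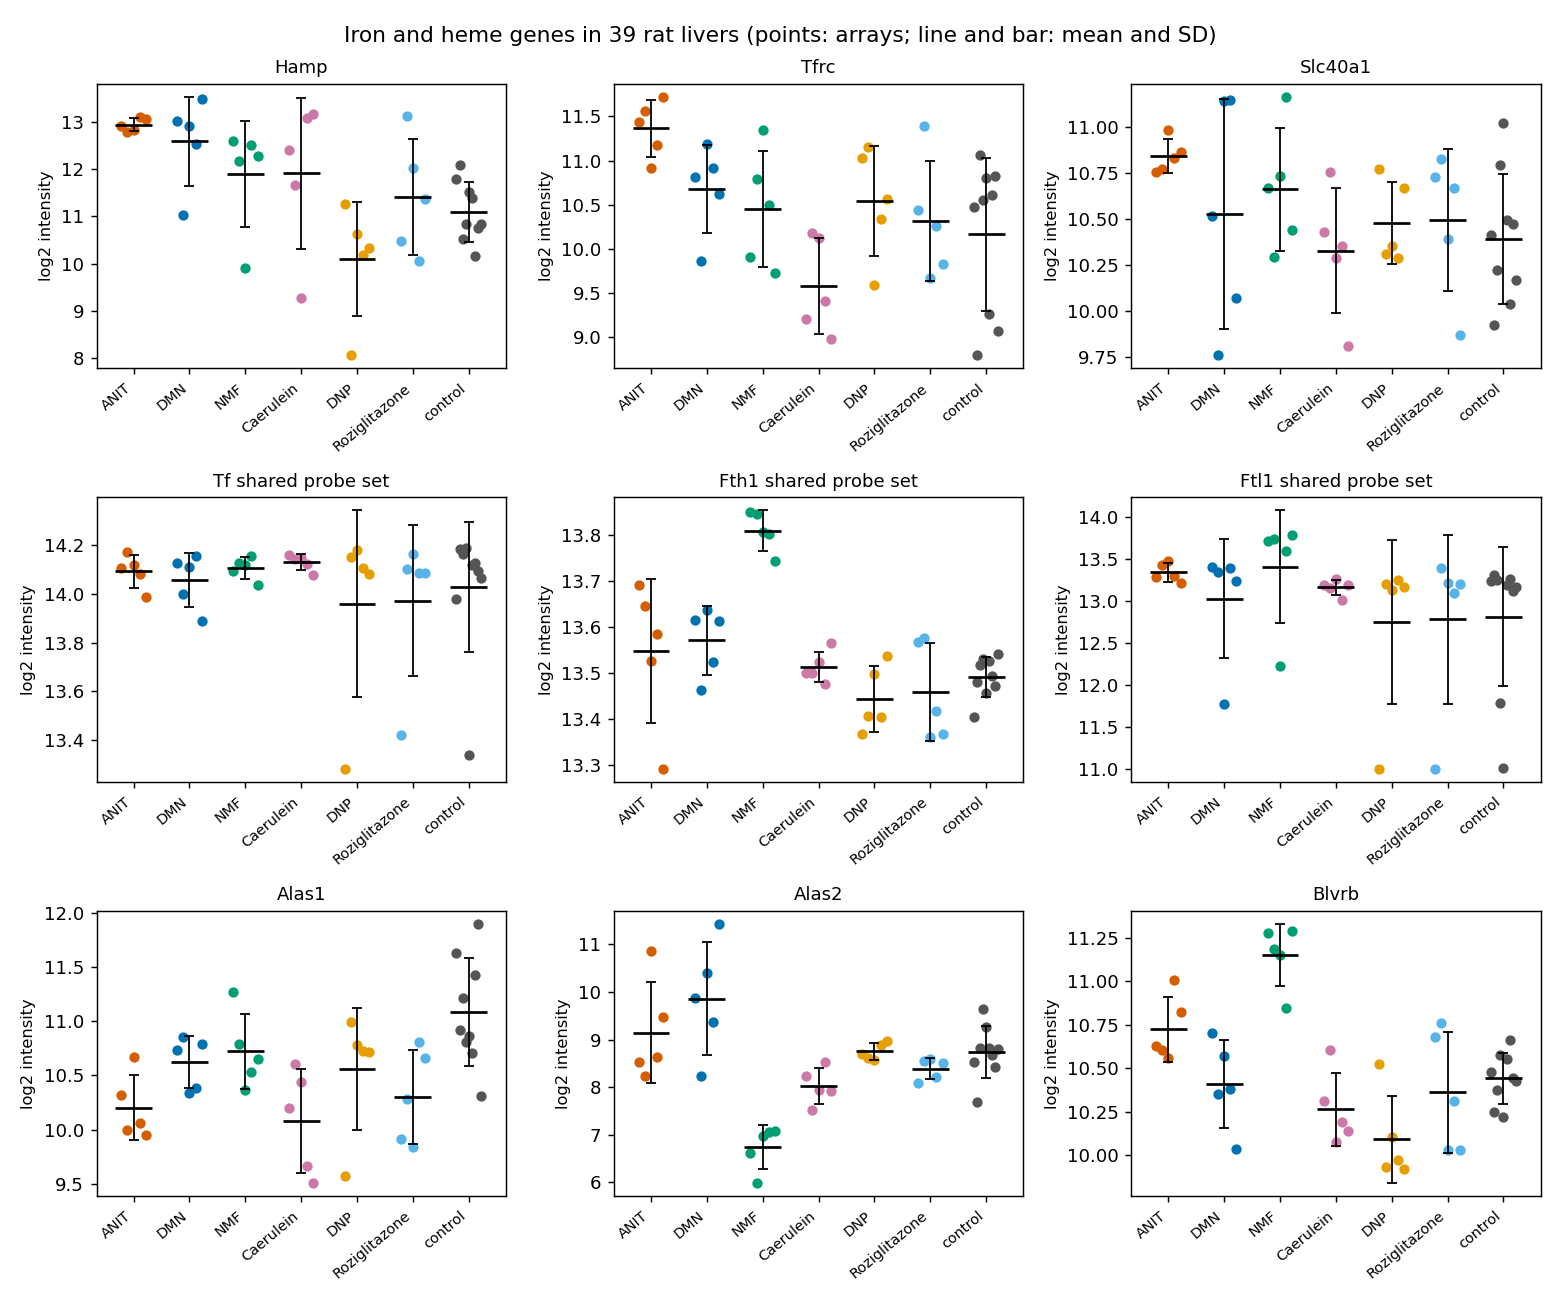
Log2 intensity of the 9 genes on each of the 39 arrays (points), by group, with the group mean (line) and SD (bar); each panel has its own vertical scale. Hamp was high and tight in ANIT livers (12.79 to 13.10), and Alas2 in NMF livers lay wholly below the controls (5.99 to 7.08 against 7.69 to 9.65).

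**Figure D2:**
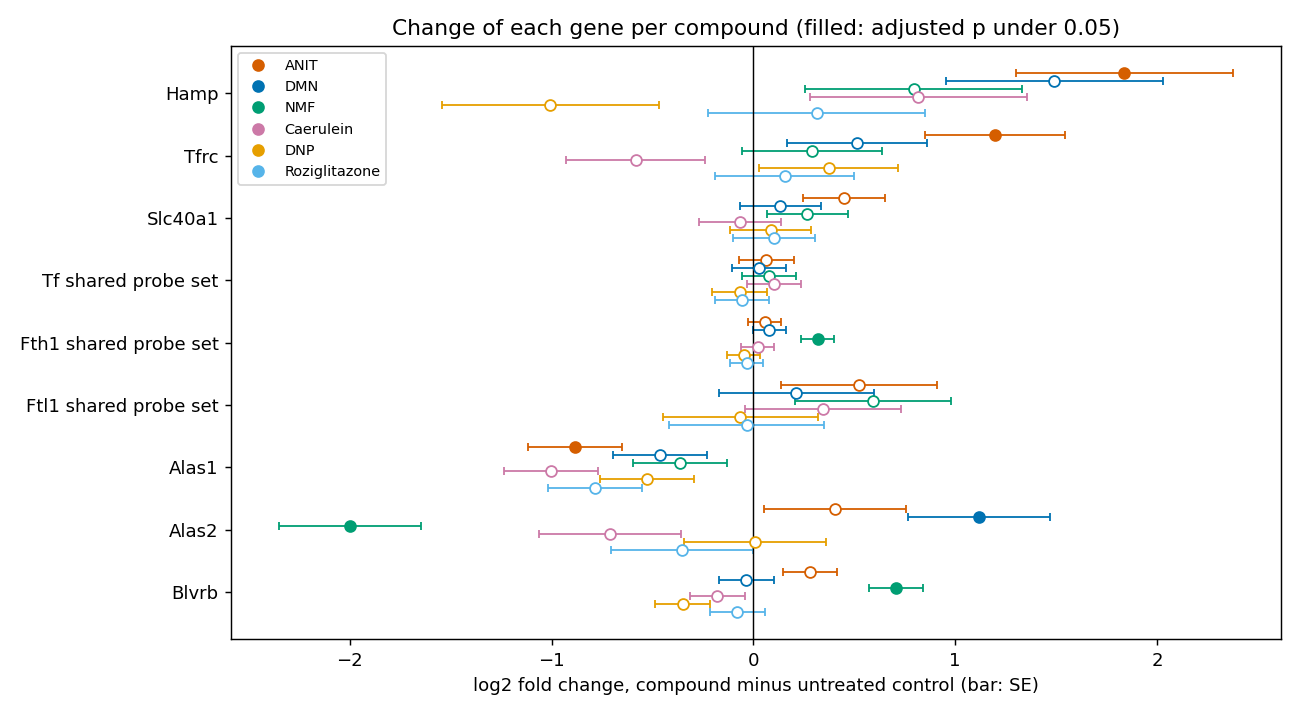
Log2 fold change of each gene, compound minus untreated control, with the SE from limma, for the 6 compounds; filled points have an adjusted p under 0.05. The filled points are Hamp, Tfrc and Alas1 for ANIT, Alas2 for DMN, and Alas2, Blvrb and the Fth1 shared probe set for NMF.

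The iron hormone Hamp was 3.58-fold higher in ANIT livers than in controls. On the log2 scale the 5 ANIT livers gave 12.90, 12.79, 12.82, 13.10 and 13.06, against 10.15, 10.85 and 12.08 as the lowest, median and highest of the 9 controls. Every ANIT liver stood above every control, a separation that 5.75% of all those tested showed, and the spread within ANIT was the narrowest of the 7 groups (SD 0.14). The difference was 1.84 (SE 0.54, limma adjusted p = 0.0159, higher in 5 of 5 livers), and 1.87 (adjusted p = 0.0155) without the 3 arrays in doubt.

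In DMN livers Hamp read 13.001, 11.02, 12.90, 12.53 and 13.48. Of these, 4 of 5 lay above the highest control, and the low one was the array labelled DMN 2. The difference from control was 1.49 (SE 0.54, limma adjusted p = 0.0698) and did not pass the test with all arrays, while without the 3 arrays in doubt it was 1.88 (adjusted p = 0.0151). Without DMN 2 alone it was also 1.88 (adjusted p = 0.0203). Without the 6 arrays of low GAPDH 5′ signal, which include DMN 3, it was 1.44 (adjusted p = 0.115). Of 23 alternatives, 5 called this difference. DMN 2 was set apart by its own profile in these same values, so results without it are no separate support.

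DNP went with the lowest Hamp mean of the 7 groups. Its 5 livers gave 11.25, 8.06, 10.62, 10.18 and 10.33, with DNP 2 far below the rest. Set against DNP, which was given in the same vehicle, by the same route and at the same dose, DMN livers had 5.65-fold more Hamp signal, a log2 difference of 2.498 (95% interval 1.26 to 3.73, limma adjusted p = 0.00863), and 2.89 (adjusted p = 0.00112) without the arrays in doubt. Hamp was the only one of the 9 called between these 2 groups, where 7.21% of all those tested were called. The groups overlapped at 1 point, since DMN 2 lay below DNP 1. This Hamp difference was 2.71 (limma adjusted p = 0.0109) without the 6 arrays of low GAPDH 5′ signal, which include DMN 3 and DNP 1.

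Within the other 3 groups Hamp varied widely from rat to rat. NMF livers gave 12.60, 12.17, 9.91, 12.50 and 12.26, Caerulein livers 12.40, 11.65, 9.27, 13.07 and 13.15, and Roziglitazone livers 10.48, 13.11, 12.03, 10.05 and 11.37. A single low liver set NMF and Caerulein apart from the high values of their other rats, and the highest Roziglitazone liver was the array in doubt. Differences from control were 0.79 for NMF, 0.82 for Caerulein, −1.01 for DNP and 0.31 for Roziglitazone, and none passed the test. Without the 6 arrays of low GAPDH 5′ signal, which include NMF 3, the NMF difference was 1.31 (limma adjusted p = 0.161). That of Roziglitazone was −0.11 (limma adjusted p = 0.978) without the 3 arrays in doubt. Neighbours in the order of means (ANIT 12.93, DMN 12.59, Caerulein 11.91, NMF 11.89, Roziglitazone 11.41, control 11.09, DNP 10.09) were closer to each other than the larger SD of the pair, also DNP, which lay 1.01 below control (SDs 1.21 and 0.63).

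Over the 39 arrays the genes whose signal followed Hamp most closely were Lcn2 (Pearson r 0.79), Map1lc3a (0.70) and Ifitm3 (0.69). The points share their groups, so these values describe the arrays and carry no test. Lcn2, which encodes a siderophore-binding protein made in inflammation, was 4.92 higher on the log2 scale in ANIT livers than in controls (SE 0.90, limma adjusted p = 0.000205) and 3.86 higher in DMN livers (SE 0.90, adjusted p = 0.00382).

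The list of hepcidin regulators also held targets of the same signalling, such as Id1. Of its 22 measured genes, 1 was higher and 0 were lower in ANIT livers than in controls. In DMN livers 1 was higher and 2 were lower, and in NMF livers 0 changed. Of all those tested, 16.6%, 10.5% and 7.71% were called in either direction. The higher gene for both ANIT and DMN was Id1, a direct target of BMP and SMAD signalling and not itself a regulator of Hamp here. Id1 averaged 8.90 in ANIT livers against 7.47 in controls (log2 fold change 1.43, SE 0.28, limma adjusted p = 0.000454) and 8.95 in DMN livers (log2 fold change 1.48, SE 0.28, adjusted p = 0.000493). Id1 was also higher in DMN livers than in DNP livers, by 1.67 (SE 0.32, adjusted p = 0.000985). Bmp2, a BMP ligand of liver endothelium, was lower in DMN livers, by −1.12 (SE 0.29, adjusted p = 0.00879), and so was the interleukin 6 receptor Il6r, by −1.02 (SE 0.33, adjusted p = 0.0383). The median of the 22 was −0.03 for ANIT, −0.14 for DMN and −0.20 for NMF, against −0.08, −0.05 and −0.05 over all those tested.

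Of 14 measured genes of the interleukin 6 type acute phase, 4 were higher and 0 lower in ANIT livers, 3 and 0 in DMN livers, and 0 and 1 in NMF livers, where 16.6%, 10.5% and 7.71% of all those tested were called. The median of the 14 was 0.24 for ANIT, 0.18 for DMN and 0.00 for NMF. Lbp, which binds bacterial lipopolysaccharide, averaged 12.57 in ANIT livers, 11.62 in DMN livers and 10.38 in controls (log2 fold changes 2.19 and 1.24, limma adjusted p = 0.0000174 and 0.0108). A2m, an inhibitor of proteases that rat liver makes in the acute phase, was 3.35 higher in ANIT livers (SE 0.68, adjusted p = 0.000743) and 2.42 higher in DMN livers (SE 0.68, adjusted p = 0.0171). In Caerulein, DNP and Roziglitazone livers none of the 14 was called, as for all those tested. Medians of A2m in these groups were 11.78, 10.11 and 9.59, against 8.89 in controls. Lcn2, which is not one of the 14, had medians of 11.19, 6.89 and 9.10, against 7.95 in controls. The part of these lists in the Hamp result was not tested.

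The transferrin receptor Tfrc, through which cells take up transferrin-bound iron, was 2.29-fold higher in ANIT livers than in controls. ANIT livers gave 11.44, 11.56, 10.92, 11.17 and 11.72 on the log2 scale, against 8.80, 10.56 and 11.07 as the lowest, median and highest control. ANIT 3 fell within the control range and the other 4 of 5 stood above it. The difference was 1.20 (SE 0.35, limma adjusted p = 0.0145), and 1.31 (adjusted p = 0.00899) without the arrays in doubt. A dimmer second Tfrc probe set gave 8.99, 8.69, 8.77, 7.80 and 6.66 in ANIT livers, against 4.34, 6.81 and 9.39 in controls, a difference of 1.16 with an SE of 0.72 (adjusted p = 0.308 over all 31042 probe sets). With the mean of both probe sets in place of the brighter one, the ANIT difference was 1.18 (adjusted p = 0.0525).

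Tfrc was lowest in Caerulein livers, at 9.21, 10.18, 10.13, 9.42 and 8.98, a mean of 9.58 against 10.16 in controls. That difference, −0.58 (SE 0.35), and those of DMN (0.51), DNP (0.37), NMF (0.29) and Roziglitazone (0.16) did not pass the test. Of the 9 controls, 3 lay at 8.80 to 9.27 and the other 6 at 10.47 to 11.07, so the control group itself spanned most of the range of the series. On the dimmer Tfrc probe set Caerulein livers were not the lowest. They averaged 7.23 there against 7.02 in controls, a difference of 0.21 (SE 0.72) that did not pass the test. Aff4 (r 0.84), Klf6 (0.82) and Gda (0.80) followed Tfrc most closely over the 39 arrays.

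The ferroportin gene Slc40a1 did not pass the test in any comparison. ANIT livers gave 10.75, 10.77, 10.98, 10.83 and 10.86, against 9.92, 10.41 and 11.02 in controls, so they lay in the upper part of the control range with little spread. The difference was 0.45 (95% interval 0.04 to 0.86, limma adjusted p = 0.123). Without the 6 arrays of low GAPDH 5′ signal, of which 2 were controls, it was 0.60 (adjusted p = 0.0237). The 2 other Slc40a1 probe sets gave 0.35 and 0.28 for ANIT (adjusted p = 0.514 and 0.555). In DMN livers the values were 10.51, 9.76, 11.14, 11.15 and 10.07, the widest spread of the 7 groups, with a difference from control of 0.13. The 2 other probe sets gave 0.97 (SE 0.33) and 0.36 (SE 0.29) for DMN (limma adjusted p = 0.083 and 0.568). Mtmr2 (r 0.85), Ccnyl1 (0.84) and Asah1 (0.84) followed Slc40a1 most closely.

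Ferritin heavy chain signal was higher in NMF livers. The probe set shared by Fth1 and Fth1-ps5 gave 13.85, 13.85, 13.81, 13.80 and 13.74 in NMF livers, against 13.41, 13.49 and 13.54 as the lowest, median and highest control. Every NMF liver stood above every control, and 4.16% of all those tested showed no overlap in either direction. The fold was small, 1.25, with a log2 difference of 0.32 (SE 0.08, limma adjusted p = 0.00889), and with NMF and control arrays alone in the fit the adjusted p was 0.0643. Against Caerulein livers, which read 13.50, 13.50, 13.53, 13.48 and 13.57, the difference was 0.30 (adjusted p = 0.0453), and leaving out any single NMF or Caerulein array took the adjusted p to 0.0599 to 0.0971. It was 0.136 with these 2 groups alone in the fit, and 0.0553 without the 6 arrays of low GAPDH 5′ signal. The other 5 compounds differed from control by −0.05 to 0.08, and none passed the test. ANIT livers spread over 13.29 to 13.69. Ipo4 (r 0.86), Rpl5 (0.82) and Rack1 (0.81) followed this probe set most closely.

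Ferritin light chain signal was low on the arrays of low GAPDH 5′ signal, and the part of array quality in this was not tested. The probe set shared by Ftl1 and the Ftl1-like loci read 11.001 to 12.22 on the 6 arrays of low GAPDH 5′ signal and 13.02 to 13.78 on the other 33, with no overlap. NMF livers gave 13.71, 13.73, 12.22, 13.59 and 13.78, against 11.01, 13.18 and 13.31 in controls, and the NMF value of 12.22 and the 2 lowest controls were among the 6 arrays. With all arrays the NMF difference was 0.59 (SE 0.39, limma adjusted p = 0.431). Without the 6 arrays, which left 4 NMF and 7 control livers, it was 0.49 (SE 0.09, adjusted p = 0.000621), and against Caerulein 0.54 (adjusted p = 0.000465), an alternative chosen after seeing the data. Over the 39 arrays Apoe (r 0.94) was the gene most like it, and over the 33 other arrays that correlation was 0.15.

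For transferrin, the bright probe set shared by Tf and Srprb lay between 13.89 and 14.19 on 36 of 39 arrays, and at 13.28, 13.42 and 13.34 on DNP 1, Roziglitazone 1 and control 5, all 3 of low GAPDH 5′ signal. These levels were near the top of the scale, where albumin read 14.32 to 14.50, and whether saturation limits differences on this probe set was not tested. Differences from control ran from −0.07 to 0.10 over the 6 compounds and none passed the test. A dimmer probe set shared by the same 2 genes gave 10.83, 11.18, 9.57, 10.78 and 11.03 in ANIT livers, against 7.62, 9.33 and 10.66 in controls, a difference of 1.49 (SE 0.39, limma adjusted p = 0.012 over all 31042 probe sets). The 2 probe sets of this pair of genes thus gave different answers for ANIT, and 4 of 5 ANIT livers stood above the controls on the dimmer one. With the mean of both probe sets the ANIT difference was 0.78 (adjusted p = 0.00937).

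**Figure D3:**
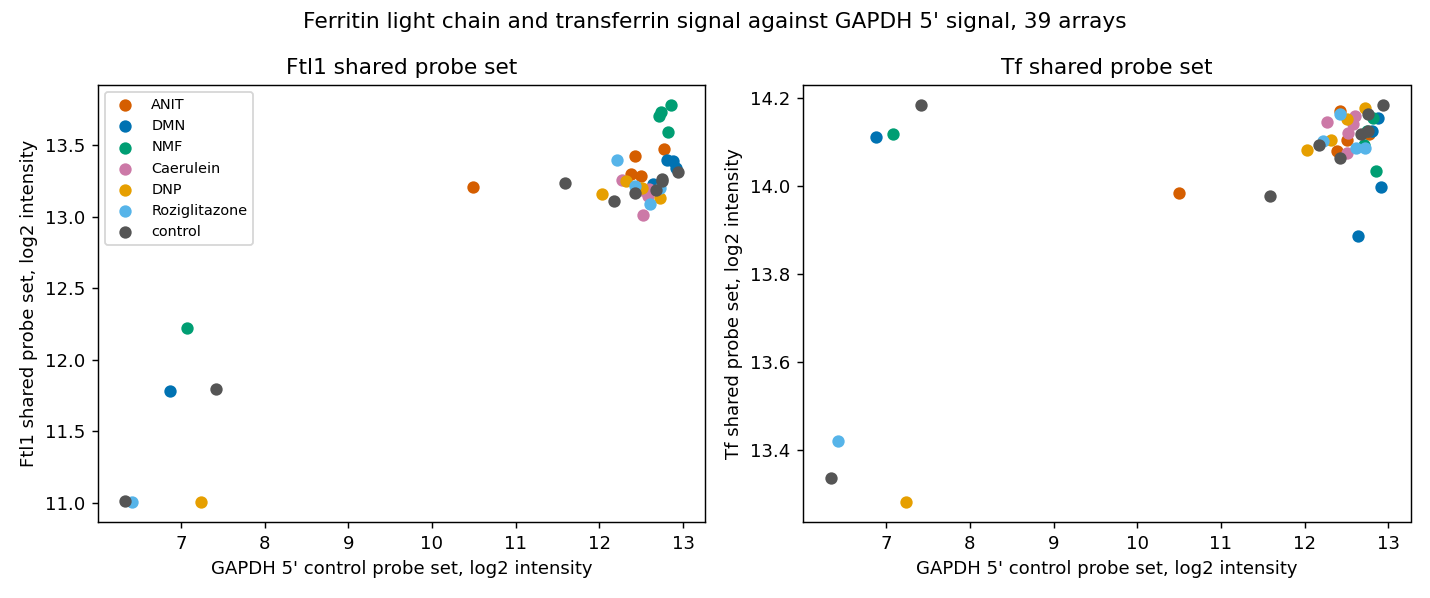
Log2 intensity of the Ftl1 shared probe set (left) and the Tf shared probe set (right) against the GAPDH 5′ control probe set, 1 point per array, coloured by group. The 6 arrays at 6.34 to 7.42 on the horizontal axis hold all Ftl1 values under 13.02, and 3 of them hold the Tf values under 13.89.

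Among 17 other measured genes of iron uptake, storage and release, 6 were higher and 1 was lower in ANIT livers than in controls, against 1 and 1 in DMN livers and 1 and 2 in NMF livers, where 16.6%, 10.5% and 7.71% of all those tested were called. Beside Lcn2, ANIT livers had more signal of Slc11a2, the divalent metal transporter (log2 fold change 0.86, SE 0.17, limma adjusted p = 0.000505), Steap4, a metalloreductase (0.88, SE 0.21, adjusted p = 0.00328), and Pcbp1, an iron chaperone (0.40, SE 0.11, adjusted p = 0.00954). Another metalloreductase, Steap3, was lower in DMN livers, by −0.83 (SE 0.23, adjusted p = 0.0151). NMF livers had more Cybrd1, a ferric reductase (0.65, SE 0.15, adjusted p = 0.00501), less Cp, the ferroxidase ceruloplasmin (−0.66, SE 0.15, adjusted p = 0.00345), and less Steap4 (−0.67, SE 0.21, adjusted p = 0.04). The median of the 17 was 0.38 for ANIT, −0.06 for DMN and −0.02 for NMF, against −0.08, −0.05 and −0.05 over all those tested.

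Alas1, the ALA synthase of hepatocytes and the rate-limiting step of their heme synthesis, was 1.84-fold lower in ANIT livers than in controls. ANIT livers gave 10.32, 10.001, 10.67, 10.06 and 9.95, against 10.31, 10.92 and 11.89 as the lowest, median and highest control. Apart from the lowest control, every control lay above every ANIT liver. The log2 difference was −0.88 (SE 0.23, limma adjusted p = 0.00811), and it was −1.001 (adjusted p = 0.00578) without the arrays in doubt.

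The mean of Alas1 was lower than the control mean in all 6 compound groups. These comparisons share the 9 controls, so the values are given side by side and are not 6 separate findings. The differences were −0.46 for DMN, −0.36 for NMF, −1.002 for Caerulein, −0.53 for DNP and −0.79 for Roziglitazone. Caerulein livers gave 10.20, 10.60, 10.43, 9.66 and 9.51, a mean of 10.08 that was below that of ANIT, but the adjusted p was 0.466 in a comparison with no call among all those tested. Between groups given in one vehicle by one route, NMF exceeded Caerulein by 0.64 (95% interval 0.10 to 1.18, adjusted p = 0.175) and DMN differed from DNP by 0.06 (95% interval −0.47 to 0.60). Zfp354a (r 0.61), Sesn2 (0.56) and Rnf152 (0.53) were most like Alas1, the weakest likeness found for any of the 9.

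Of 11 other measured genes of the heme pathway, 0 were higher and 1 was lower in ANIT livers, 0 and 2 in DMN livers, and 0 and 0 in NMF livers, where 16.6%, 10.5% and 7.71% of all those tested were called. Clpx, a mitochondrial unfoldase that acts on ALA synthase, was lower in ANIT livers, at 9.79 against 11.29 in controls (log2 fold change −1.50, SE 0.23, limma adjusted p = 0.0000176), and lower in DMN than in DNP livers, by −0.81 (SE 0.26, adjusted p = 0.048). Abcb10 and Abcb6, both transporters of mitochondrial or porphyrin cargo, were lower in DMN livers, by −0.55 (SE 0.15, adjusted p = 0.0175) and −0.45 (SE 0.15, adjusted p = 0.0444). Against Caerulein, NMF livers had 2 of the 11 higher and 0 lower. The median of the 11 was −0.32 for ANIT, −0.33 for DMN and 0.13 for NMF, against −0.08, −0.05 and −0.05 over all those tested.

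Alas2, the ALA synthase of red cell precursors, fell 4.00-fold in NMF livers relative to controls. NMF livers gave 6.62, 5.99, 6.97, 7.06 and 7.08, against 7.69, 8.80 and 9.65 as the lowest, median and highest control. All 5 NMF livers were below all 9 controls, which 4.16% of all those tested showed in either direction, as did Blvrb and the Fth1 shared probe set among the 9. The log2 difference was −1.999 (SE 0.35, limma adjusted p = 0.000168). Compared with Caerulein livers, at 8.24, 7.53, 7.95, 8.54 and 7.91, NMF livers were again wholly lower, a separation that 9.36% of all those tested showed in that pair. The difference was −1.29 (SE 0.40, adjusted p = 0.0464), 1 of 3 calls among the 9 where 5.82% of all those tested were called. That last call was lost (adjusted p 0.0578 to 0.133) when any single NMF or Caerulein array other than Caerulein 2 was left out, and it was lost with arrays centred on their medians (adjusted p = 0.0863) and with the mean of a gene's probe sets (adjusted p = 0.0511).

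In DMN livers Alas2 was higher and scattered, at 9.88, 8.24, 10.39, 9.36 and 11.42. Of the 5, 3 lay above the highest control, and the array labelled DMN 2 lay below the control median. The log2 difference was 1.12 (SE 0.35, limma adjusted p = 0.035), or 1.52 (adjusted p = 0.000256) without the arrays in doubt. The call was lost with DMN and control arrays alone in the fit (adjusted p = 0.112), without DMN 1, 3 or 5 (0.0682, 0.115 and 0.173, the difference being 0.73 without DMN 5), without control 1, 2 or 8 (0.0523, 0.0704 and 0.0529), and without the 6 arrays of low GAPDH 5′ signal (0.0548). Against DNP, whose livers lay between 8.57 and 8.98, DMN was higher by 1.11 (adjusted p = 0.0849), and by 1.51 (adjusted p = 0.0013) without the arrays in doubt. Without the 6 arrays of low GAPDH 5′ signal, which include DMN 3 and DNP 1, DMN was higher by 0.96 (adjusted p = 0.22). Of 19 alternatives, 5 called this difference from DNP. As for Hamp, results without DMN 2 are no separate support.

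ANIT livers gave Alas2 values of 8.53, 8.23, 10.85, 8.65 and 9.47, and the highest was the array labelled ANIT 3. The difference from control was 0.40 (adjusted p = 0.448), and −0.02 (adjusted p = 0.969) without the arrays in doubt. Differences of −0.71 for Caerulein, 0.01 for DNP and −0.35 for Roziglitazone did not pass the test.

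Alas2 moved with hemoglobin transcripts from array to array. Over the 39 arrays the most alike were Hba-a3 (r 0.92), the probe set shared by Hbb-bs and Hbbl1 (r 0.91) and Alox15 (r 0.90). In NMF livers Hba-a3, an alpha globin gene, averaged 9.67 against 11.21 in controls (log2 fold change −1.54, SE 0.29, limma adjusted p = 0.000349), and Hbb, a beta globin gene, averaged 11.57 against 12.71 (−1.13, SE 0.24, adjusted p = 0.00188). The shared probe sets Hba-a1/Hba-a2 and Hbb-bs/Hbbl1 were also lower, by −0.67 (adjusted p = 0.0268) and −1.15 (adjusted p = 0.000769).

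Of 15 measured erythroid markers, 0 were higher and 2 were lower in NMF livers, where 7.71% of all those tested were called. The 2 were Hba-a3 and Hbb, given above. The median of the 15 was −0.15 for NMF, against −0.05 over all those tested. The summed intensity of the list, in which bright genes such as these 2 globins weigh most, was 4308 to 6023 in NMF livers, against 8320 to 16400 in controls. In DMN livers the sum ran from 9379 to 28600. There 0 markers were higher and 1, Epb42 of the red cell membrane skeleton, was lower (−0.62, SE 0.20, adjusted p = 0.0388), where 10.5% of all those tested were called. The median of the 15 was 0.02 for DMN, against −0.05 over all those tested. In whole liver RNA, fewer red cells or precursors and less RNA in each of them cannot be told apart. The part of blood content in the Alas2 result was not tested.

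**Figure D4:**
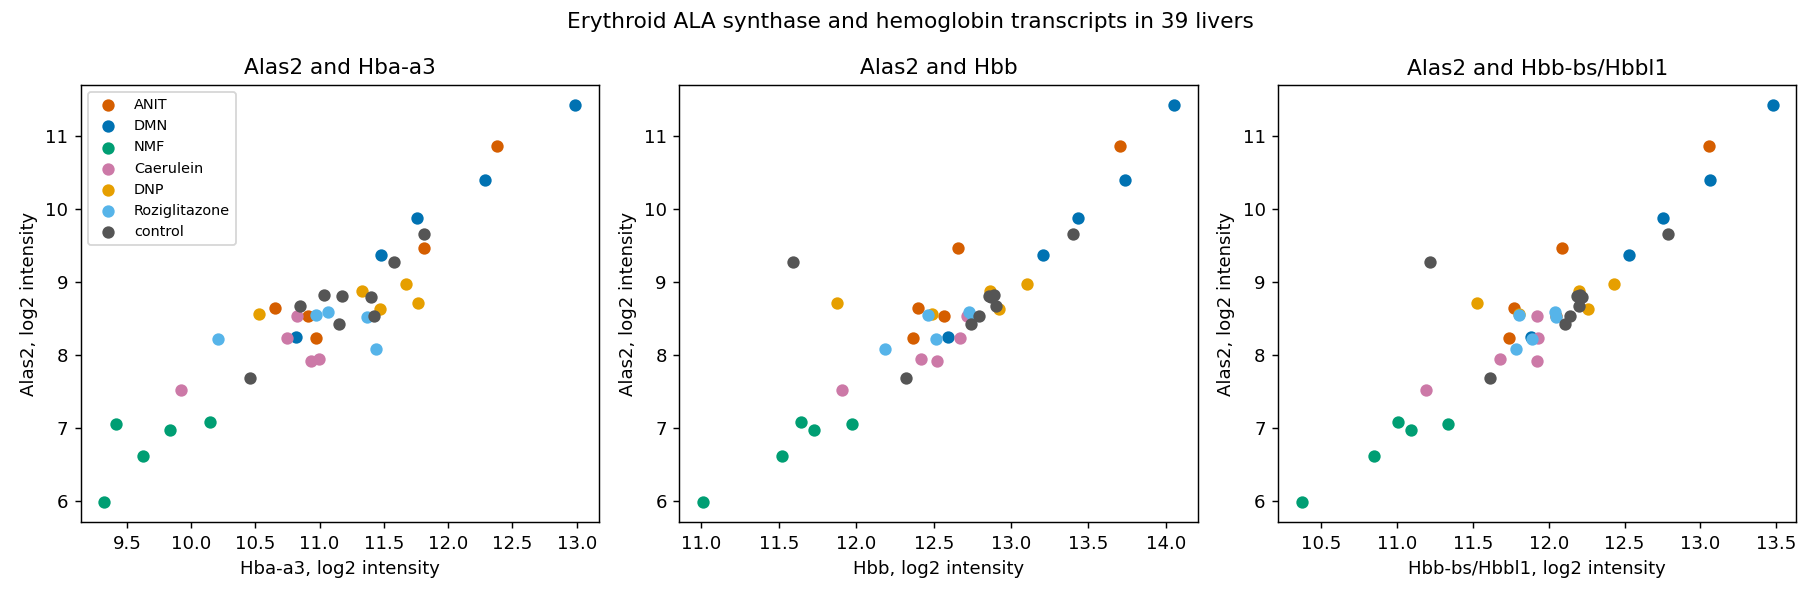
Log2 intensity of Alas2 against Hba-a3, Hbb and the probe set shared by Hbb-bs and Hbbl1, 1 point per array, coloured by group. NMF arrays form the low end (Alas2 of 5.99 to 7.08), and DMN 5, ANIT 3 and DMN 3 the high end (11.42, 10.85 and 10.39).

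Blvrb, the biliverdin and flavin reductase, was 1.63-fold higher in NMF livers. NMF livers gave 11.27, 11.19, 11.15, 10.85 and 11.29, against 10.22, 10.44 and 10.66 as the lowest, median and highest control. No NMF liver overlapped the controls, as for 4.16% of all those tested. The log2 difference was 0.71 (SE 0.13, limma adjusted p = 0.000472), and against Caerulein livers, at 10.31, 10.60, 10.07, 10.19 and 10.14, it was 0.88 (SE 0.15, adjusted p = 0.000212), again without overlap, as for 9.36% of all those tested in that pair.

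Blvrb values in ANIT livers were 10.63, 10.60, 10.56, 11.01 and 10.82, all above the control mean of 10.44, with a difference of 0.28 (95% interval 0.01 to 0.55, adjusted p = 0.15). DNP livers were the lowest, with a mean of 10.09 and a difference of −0.35 (SE 0.13) that did not pass the test. The other 3 compounds differed from control by −0.18 to −0.04. Tuba4a (r 0.87), Abcc3 (0.83) and Gsta3 (0.82) followed Blvrb most closely over the 39 arrays. Of 11 measured targets of NRF2, the regulator of the antioxidant response, 6 were higher and 0 lower in ANIT livers, where Blvrb was not called, 2 and 0 in DMN livers, and 6 and 0 in NMF livers, against 16.6%, 10.5% and 7.71% called of all those tested. Gpx2, a glutathione peroxidase, averaged 9.30 in NMF livers against 4.99 in controls (log2 fold change 4.31, SE 0.49, limma adjusted p = 1.06e-07), where the control mean was close to the spike probe sets that mark background (3.49 to 4.70).

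Of 14 measured genes of heme breakdown and transport, 3 were higher and 2 lower in ANIT livers, 2 and 2 in DMN livers, and 3 and 0 in NMF livers, where 16.6%, 10.5% and 7.71% of all those tested were called. Hmox1, the inducible heme oxygenase, averaged 11.60 in ANIT livers, 11.37 in DMN livers and 9.76 in controls (log2 fold changes 1.84 and 1.61, limma adjusted p = 0.00222 and 0.00919). Slc48a1, which carries heme out of lysosomes, was higher in ANIT livers, by 0.97 (SE 0.17, adjusted p = 0.000112), and in NMF livers, by 0.98 (SE 0.17, adjusted p = 0.00011).

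The carrier Slc46a1, which moves folate and heme, was lower in ANIT livers, by −1.22 (SE 0.17, limma adjusted p = 8.85e-06), and in DMN livers, by −1.19 (SE 0.17, adjusted p = 0.0000192). Hebp1, a heme-binding protein, was lower in both as well, by −0.71 (SE 0.14, adjusted p = 0.000541) and −0.45 (SE 0.14, adjusted p = 0.0312). NMF livers had more Pgrmc1, a heme-binding membrane protein (0.61, SE 0.12, adjusted p = 0.000825), and more Hmox2, the constitutive heme oxygenase (0.43, SE 0.13, adjusted p = 0.0407). The median of these 14 was 0.12 for ANIT, 0.18 for DMN and 0.00 for NMF.

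Of 13 measured genes that sense iron or build iron-sulfur clusters, 1 was higher and 3 were lower in ANIT livers, where 16.6% of all those tested were called. The 3 were Nfs1, the cysteine desulfurase (−0.77, SE 0.19, limma adjusted p = 0.00519), Glrx5, which passes clusters on (−0.41, SE 0.12, adjusted p = 0.0154), and Iscu, the assembly scaffold (−0.33, SE 0.11, adjusted p = 0.0336), and the higher one was Nubp1 of the cytosolic pathway (0.50, SE 0.14, adjusted p = 0.0105). None of the 13 passed the test in DMN livers. In NMF livers 1 was higher and 0 lower: Hscb, a co-chaperone of cluster assembly, averaged 8.25 against 7.26 in controls (0.99, SE 0.19, adjusted p = 0.000423).

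**Figure D5:**
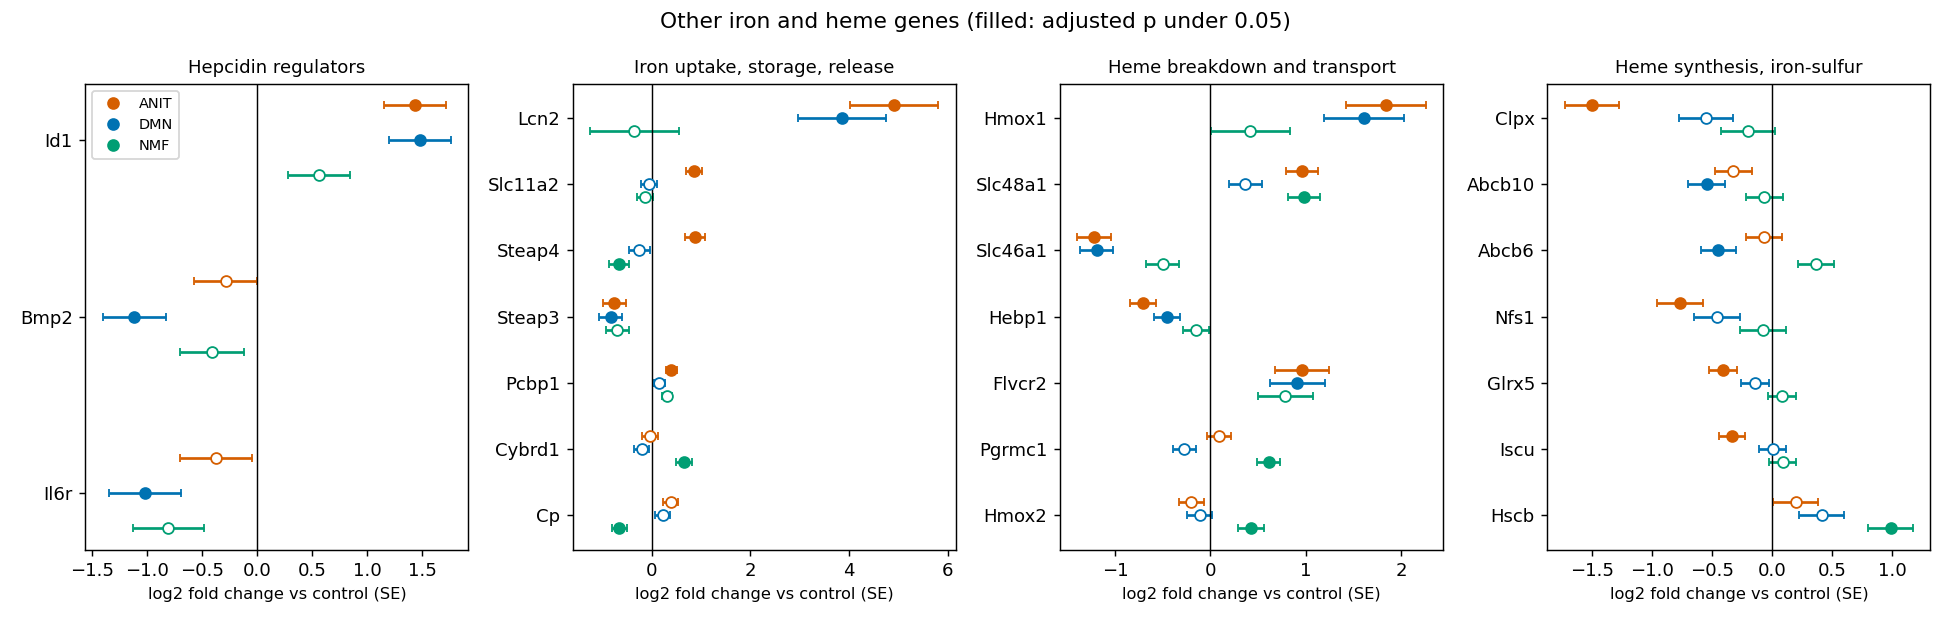
Log2 fold change against untreated control, with the SE from limma, of other iron and heme genes in ANIT, DMN and NMF livers; filled points have an adjusted p under 0.05. Each panel has its own horizontal scale, and only genes called in at least 1 of the 3 groups are drawn, with Lcn2 reaching 4.92 in ANIT livers. The panel of hepcidin regulators also holds Id1, a target of BMP and SMAD signalling.

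Some markers of other cell types also passed the test. The share called over all those tested was 16.6% for ANIT, 10.5% for DMN and 7.71% for NMF, each against control. Of 12 measured macrophage markers, 2 were higher and 1 lower in ANIT livers, 2 and 1 in DMN livers and 1 and 4 in NMF livers, and their summed intensity was 14200 to 19390, 13310 to 25500 and 10680 to 18570 in these groups, against 12560 to 17640 in controls. Of 10 neutrophil markers, 5 were higher in DMN livers (sum 742 to 7668 against 783 to 1470 in controls) and 0 in ANIT and NMF livers. Of 12 hepatocyte markers, 1 was higher in ANIT livers and 0 changed in DMN and NMF livers. Of 11 cell cycle genes, 5 were higher in ANIT livers, 10 in DMN livers and 0 in NMF livers. Of 6 cholangiocyte markers, 1 was higher in each of the 3 groups and 1 was lower in ANIT and in DMN livers. Hbb, Alb, Ttr, Cd68, C1qa, S100a8 and S100a9, which define these cell types, were above the spike probe sets on all arrays, and the part of the marker lists in the results above was not tested.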

How the data were processed

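Values deposited by the authors were probe set intensity on a linear scale (5.4 to 23152.1) from Affymetrix rat arrays. Per the submitters' processing notes RMA and the affy package were used, with no version, and the step back to a linear scale is not stated. The log2 was taken here. RMA summarises probes after quantile normalization, so levels are relative within a probe set, and no read depth exists for arrays.

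Of 31099 probe sets, 57 controls were left out of the tests, 20826 had 1 gene symbol, 436 several and 9780 none. Symbols were updated through a RefSeq table (GRCr8) for 20758 and kept for 68. The probe set with the highest mean stood for each of the 4525 genes with several, giving 14217 genes, and 327 features for probe sets with several symbols were kept apart, 14544 tested in all. A model with 1 mean per group over all 39 arrays was fitted with limma 3.58.1 in R 4.3.3 (lmFit, contrasts.fit, eBayes). Benjamini-Hochberg adjustment ran over all 14544 p-values, with calls at 0.05. Single probe sets were adjusted over 31042. The fit was tested on simulated data. Fold changes run compound minus control, and the SE is limma's.

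The labels call the arrays of a group biological replicates. Named genes were the 9 with all their probe sets, from each related list at most the 4 called with the lowest adjusted p per comparison, and the 3 genes most correlated with each of the 9. The 9 genes and the lists were chosen with earlier results of these data known. Alternatives were median centring, a second quantile normalization, no dimmest 30%, the mean of a gene's probe sets and array weights. Further ones were compared groups only, the replicate number as a block, and leaving out arrays. The 3 arrays in doubt were picked by their profiles in these data, and the set of 6 arrays was also chosen after seeing the data.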

Additional observations from a re-analysis of the deposited data

Results flagged for a closer look

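In 9 of the 63 combinations of gene and group, 1 array lay further from its group than Dixon's 95% limit allows, where chance gives about 3.15. Hamp read 9.91 on NMF 3, against 12.17 to 12.60 on the other NMF arrays. The Tf shared probe set read 13.28 on DNP 1 (others 14.08 to 14.18), 13.42 on Roziglitazone 1 (others 14.09 to 14.16) and 13.34 on control 5 (others 13.98 to 14.19). The Ftl1 shared probe set read 11.78 on DMN 3 (others 13.23 to 13.40), 12.22 on NMF 3 (others 13.59 to 13.78), 11.001 on DNP 1 (others 13.13 to 13.25) and 11.004 on Roziglitazone 1 (others 13.09 to 13.40). Alas1 read 9.57 on DNP 1, against 10.71 to 10.99 on the other DNP arrays. All of these arrays are among the 6 with low GAPDH 5′ signal.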

How the results depend on the processing

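The number of arrays limits the precision, and the untreated controls leave vehicle and route with the compound. Of the 9 genes in 8 comparisons, 11 were called and 54 were called under no setting tried. In ANIT against control the calls were 3 of 9 with any single array left out, and 1 with the replicate block. In DMN against control the 1 call became 2 with median centring, 2 without the 3 arrays in doubt, 2 with array weights, 0 with the replicate block and 0 without the 6 arrays of low GAPDH 5′ signal, and ran from 0 to 2 with single arrays left out. In DMN against DNP the 1 call became 2 with centring, 2 without the arrays in doubt, 2 with the block and 3 with weights, and ran from 1 to 2. The calls ran from 3 to 3 for NMF against control, from 1 to 2 for NMF against Caerulein, from 5 to 6 for the F test and stayed at 0 for Caerulein, DNP and Roziglitazone.

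The replicate numbers of the labels are not said to pair rats, and same-numbered arrays deviated together (correlation over 0.1) in at most 4 of 5 pairs of any comparison, so the block served only as an alternative. With it, the ANIT calls of Hamp (1.59, adjusted p = 0.0925) and Tfrc (1.02, adjusted p = 0.0838), that of Alas2 for DMN (1.07, adjusted p = 0.0552) and that of the Fth1 shared probe set for NMF against Caerulein (0.30, adjusted p = 0.0682) were lost, and Alas2 was called for DMN against DNP (1.11, adjusted p = 0.0494). The Tf shared probe set turned sign for ANIT with a second quantile normalization (−0.0158), without the 6 arrays (−0.012) and with single arrays left out (−0.0222 without control 5, up to 0.0907), from 0.0641, and none of these passed the test, while with the mean of a gene's probe sets it was called (0.78, adjusted p = 0.00937) and Tfrc was not (adjusted p = 0.0525). The cause was not tested.

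Array weights raised the genes called to 4951 for ANIT, 3579 for DMN, 2012 for NMF, 5 for Caerulein, 9 for Roziglitazone, 2734 for DMN against DNP, 1907 for NMF against Caerulein and 6734 in the F test, from 2409, 1534, 1122, 0, 0, 1048, 846 and 2886. Fits on the compared groups gave 903 for DMN and 281 for DMN against DNP, and DMN against DNP gave 1650 without the arrays in doubt, and ANIT gave 3713 without the 6 arrays. With single arrays left out the genes called ran from 1748 to 2818 for ANIT, 1056 to 1900 for DMN, 769 to 1213 for NMF, 0 to 1 for Caerulein, 678 to 1469 for DMN against DNP, 562 to 782 for NMF against Caerulein, 2415 to 3405 in the F test, and stayed at 0 for DNP and Roziglitazone. Median centring moved the split of higher and lower genes to 1719 and 641 for ANIT (1203 and 1206 before), 1123 and 348 for DMN (882 and 652), 810 and 325 for NMF (592 and 530), 1015 and 176 for DMN against DNP (600 and 448), and 833 and 158 for NMF against Caerulein (540 and 306).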
